A study of Homo sapiens with 22 samples.

Results

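JUN binding in PC3 cells was compared between a control siRNA (siNC) and an siRNA against FOXA2 (siFOXA2), with 1 list of ChIP-seq regions per side. A siNC region was called kept if it shared at least 1 bp with a siFOXA2 region and lost if it did not, and a siFOXA2 region that overlapped no siNC region was called new. Of 23890 siNC regions 3193 were kept and 20697 were lost (86.6% of the list). The siNC list was much the longer, and between equal numbers of the highest-scoring regions, 4081 of each list, 47.4% of siNC regions were kept. Of 4081 siFOXA2 regions 878 were new (21.5%). The 27971 regions of both lists were part of 871377 regions in the 22 lists of the series.

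PC3 is an androgen receptor-negative prostate cancer line established from a bone metastasis, and both sides were the same line, transfected with siRNA and otherwise untreated per the labels. The other lists used here included vehicle-treated PC3 cells (FOXA2, H3K27ac and ATAC-seq). PC3 cells were also given the LSD1 inhibitors ORY-1001 (10 µM) or C12 (0.5 µM) for 4 h before FOXA2 ChIP. FOSL1 ChIP came from siNC and siFOXA2 PC3 cells, and JUN ChIP from siNC-treated NCI-H660 and LNCaP cells. A comparison of lines at the end used JUN ChIP from siFOXA2-treated and FOXA2 ChIP from vehicle-treated NCI-H660 cells. A further pair of FOXA2 ChIPs from vehicle PC3 cells, with no antibody in its labels, is called the other FOXA2 ChIPs. Counts of overlapped lists took in all 22 lists of the series. Those not yet named were, in NCI-H660, FOXA2 ChIP under ORY-1001 (10 µM, 4 h) and vehicle H3K4me2 ChIP and ATAC-seq. In LNCaP they were JUN ChIP after siFOXA1, vehicle FOXA2 and JUN ChIP with FOXA2 overexpression, and vehicle JUN ChIP with FOXA2 K265R. No list used here measured how far siFOXA2 lowered FOXA2, and depth was unknown, so that a lost region is one that was not listed, and weaker binding and shallower sequencing cannot be told apart. With 1 list per side there was no replicate check and no test between conditions. The 95% intervals below cover counting error only, and regions are not independent replicates.

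JUN is a subunit of AP-1, a dimer of JUN with FOS-family proteins such as FOSL1 (FRA-1) or with another JUN, which binds a short palindromic DNA element in enhancers and promoters of genes of growth, migration and matrix remodelling. FOXA2 is a forkhead pioneer factor, able to bind its element in closed chromatin and to help other factors gain access. ChIP-seq lists where a protein sits, ATAC-seq lists accessible DNA, and H3K27ac is a histone mark of active enhancers and promoters.

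The cell identity was read from promoters in the vehicle lists. All 4 epithelial and PC3 markers (KRT8, KRT18, VIM and CD44) had a start site with H3K27ac and with ATAC signal. KLK3 and CHGA, which define luminal and neuroendocrine cells, had neither, while 3 of 5 luminal markers and 1 of 4 neuroendocrine markers had H3K27ac at a start site.

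Some of the highest-scoring lost and kept regions show the elements that the later counts are about. Each sequence is the 200 bases around the centre of a region on the plus strand of hg19, in lower case with AP-1 elements (TGACTCA or TGAGTCA) and forkhead elements in capitals. The forkhead element was searched on both strands as T, then A or G, then TTT, then A or G, then C or T. The lost regions were read at chr10:68109595-68109794 in an intron of CTNNA3 and at chr12:29052833-29053032 between genes 248599 bp from FAR2. The kept regions were read at chr10:33423065-33423264, 43008 bp from NRP1, and at chr10:78923804-78924003 in an intron of KCNMA1.
Lost, CTNNA3 intron: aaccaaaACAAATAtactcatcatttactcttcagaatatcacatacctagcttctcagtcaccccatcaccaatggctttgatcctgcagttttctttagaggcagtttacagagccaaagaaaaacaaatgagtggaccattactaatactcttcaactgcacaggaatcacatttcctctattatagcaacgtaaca
Lost, beyond FAR2: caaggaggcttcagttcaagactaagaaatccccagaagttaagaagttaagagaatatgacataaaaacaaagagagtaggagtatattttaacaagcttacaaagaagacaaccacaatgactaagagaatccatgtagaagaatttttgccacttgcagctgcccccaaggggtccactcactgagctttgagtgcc
Kept, beyond NRP1: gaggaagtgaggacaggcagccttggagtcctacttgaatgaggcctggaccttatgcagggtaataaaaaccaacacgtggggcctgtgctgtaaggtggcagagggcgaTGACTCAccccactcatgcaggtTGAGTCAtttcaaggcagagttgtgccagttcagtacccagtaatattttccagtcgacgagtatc
Kept, KCNMA1 intron: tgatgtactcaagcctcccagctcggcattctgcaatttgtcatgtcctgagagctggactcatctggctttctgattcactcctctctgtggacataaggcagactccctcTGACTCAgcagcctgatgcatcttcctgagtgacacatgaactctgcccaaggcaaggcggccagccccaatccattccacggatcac

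The lost region at CTNNA3 held a forkhead element and no AP-1 element, and the region beyond FAR2 held neither. Their siNC scores were 1695 and 1515, and the region beyond FAR2 overlapped FOSL1 in siNC cells while the one at CTNNA3 did not. The kept region beyond NRP1 held 2 AP-1 elements and the one in KCNMA1 held 1, and neither held a forkhead element. Their scores fell from 7149 to 1242 and from 6009 to 1430, and both overlapped FOSL1. The score is the whole number that the peak caller gave to each region and rises with the strength of the call. The third highest kept region (chr10:33552997-33553655) lay 365 bp from a start site of NRP1, held an AP-1 element and had a score of 5497 in siNC and 1144 in siFOXA2.

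Strong regions that overlapped FOXA2 in vehicle cells and held both elements are shown next, as lost and kept sites with the same elements but not matched for score. The lost ones were read at chr10:54078902-54079101, 947 bp from DKK1, and at chr10:63699452-63699651 in an intron of ARID5B, and the kept one at chr10:33445083-33445282, 20929 bp from NRP1.
Lost, beside DKK1: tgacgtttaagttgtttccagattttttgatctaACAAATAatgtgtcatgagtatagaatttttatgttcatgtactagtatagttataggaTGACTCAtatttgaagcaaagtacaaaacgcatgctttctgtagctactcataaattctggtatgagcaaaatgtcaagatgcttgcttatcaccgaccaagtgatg
Lost, ARID5B intron: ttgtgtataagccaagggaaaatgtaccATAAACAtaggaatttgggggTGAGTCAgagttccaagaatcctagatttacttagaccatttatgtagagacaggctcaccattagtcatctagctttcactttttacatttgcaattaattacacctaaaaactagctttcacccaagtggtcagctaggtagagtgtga
Kept, beyond NRP1 with both: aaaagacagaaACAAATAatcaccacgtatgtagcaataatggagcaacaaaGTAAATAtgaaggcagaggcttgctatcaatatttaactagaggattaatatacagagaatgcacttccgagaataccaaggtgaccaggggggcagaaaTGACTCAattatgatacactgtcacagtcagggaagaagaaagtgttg

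DKK1 encodes a secreted WNT antagonist and ARID5B a DNA-binding chromatin cofactor. The lost regions scored 1068 at DKK1 and 1033 at ARID5B in siNC, and neither overlapped FOSL1. The kept region beyond NRP1 scored 2934 in siNC and 74 in siFOXA2, and it overlapped FOSL1. It was thus a much stronger call in siNC than the lost regions.

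Retention followed the siNC score. Among the highest-scoring 10th of the siNC list (scores of 455 and above) 61.8% of regions were kept (95% interval 59.8 to 63.7), against 24.3% in the next decile, 13.2% in the 8th and 3.69% (3.0 to 4.51) in the lowest (scores 13 to 49). Retention was flat between 3.69% and 4.36% over the lowest 5 deciles. Lost regions therefore included 915 of the 2393 strongest, with a median score of 554, whereas the 1478 kept ones had a median of 729. On the other side, 82.2% of siFOXA2 regions in the lowest siFOXA2 score decile were new and 2.70% in the highest.

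**Figure D1:**
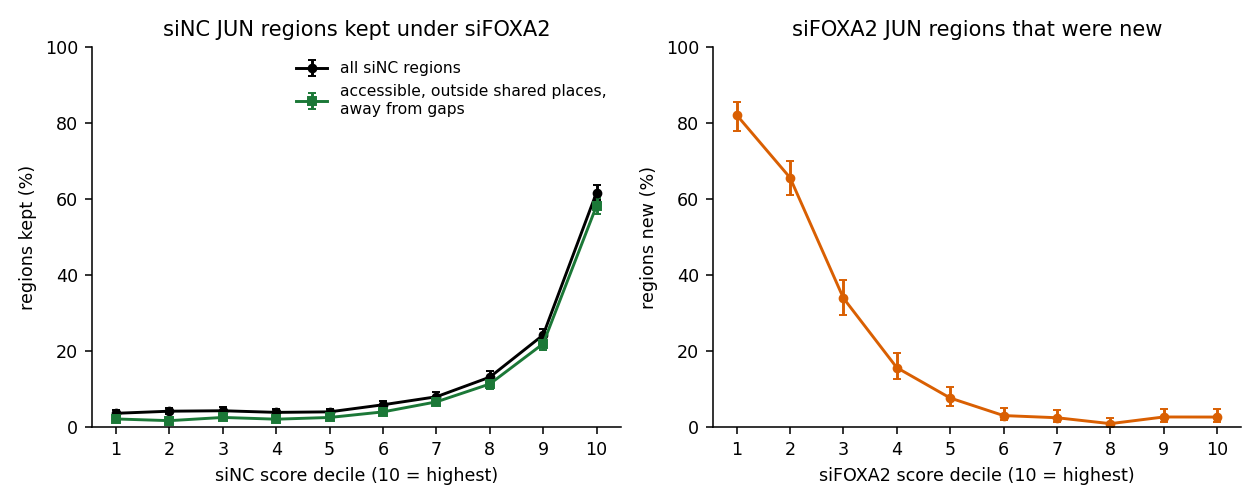
Share of regions (y axes, percent, with 95% Wilson intervals) by score decile (x axes, 10 is highest). Left, siNC regions kept under siFOXA2, over all siNC regions and over those that were accessible, outside shared places and away from gaps: both lines stay under 10% to the 7th decile and reach 61.8% and 58.3% in the highest. Right, siFOXA2 regions that were new: the share falls from 82.2% in the lowest decile to 2.70% in the highest.

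A small group of places behaved differently from the rest. Regions that overlapped at least 17 of the 22 lists of the series, called shared places, made up 11.7% of kept regions and 0.0580% of lost ones. The 22 lists included the siFOXA2 JUN list, which every kept and no lost region overlapped, so this contrast was partly set by definition. Regions within 2 Mb of a run of unknown bases of 1 Mb or more made up 12.1% of kept and 2.48% of lost regions, and 22.3% of these regions held an AP-1 element. Most feature comparisons below are therefore given also over a further set, chosen after seeing the data: 21992 siNC regions that were accessible, outside shared places and at least 2 Mb from such a gap, called the filtered set. In it 2504 regions were kept, or 11.4% (11.0 to 11.8), with 58.3% kept in the highest decile and 2.20% in the lowest. The filtered set was partly chosen by outcome, since the shared places left out held 374 kept and 12 lost regions.

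Kept regions were still weaker calls after FOXA2 silencing. Over 2819 kept regions outside shared places the median score was 418 in siNC and 106 in siFOXA2, and 2624 of them (93.1%) had a lower score in siFOXA2. The median ratio of siFOXA2 to siNC score was 0.254. Scores are not on 1 scale between libraries of unknown depth, so the size of this fall is a description of the lists. The order of the kept regions was partly held (Spearman rho 0.62 across regions, which are not independent). Kept regions were also longer, with a median length of 400 bp against 309 bp for lost and 270 bp for new regions.

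**Figure D2:**
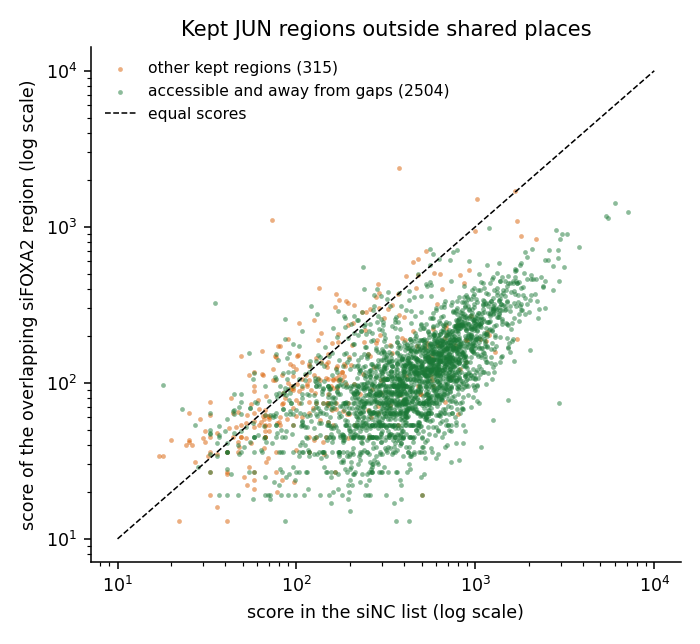
Score in siNC (x axis, log scale) and score of the overlapping siFOXA2 region (y axis, log scale) for each kept region outside shared places. The dashed line marks equal scores. Of 2819 points, 2624 lie below it, and points above it are mostly at low siNC scores.

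FOSL1 occupancy marked kept regions more than any other feature examined. FOSL1 in siNC cells overlapped 51.6% of kept, 4.36% of lost and 14.7% of new regions. Of the 2550 JUN regions with FOSL1, 64.6% (62.7 to 66.4) were kept, against 7.24% (6.90 to 7.60) of those without. To compare regions of closer strength, the kept share with a feature minus the share without it was averaged over the 10 siNC score deciles (the standardised difference, in percentage points). For FOSL1 it was 45.5 points (42.9 to 48.1), and 31.2 points (27.9 to 34.5) in the filtered set. In the highest decile of the filtered set 77.1% of 927 regions with FOSL1 and 44% of 1223 without it were kept. Strength was not equal within that decile, whose scores ran from 455 to 7149. Over all siNC regions of the highest decile the median score was 729 for kept and 554 for lost ones. How far the standardised and highest-decile differences still carry JUN strength was not tested.

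In the lower deciles the FOSL1 difference rested on few regions, most of them with FOXA2, that were unlike the strong ones. In deciles 1 to 5 of the filtered set 89 of 141 regions with both FOXA2 and FOSL1 were kept (63.1%), but only 1 of those 89 held an AP-1 element, and they overlapped a median of 14 lists. With FOSL1 and without FOXA2 12 of 131 were kept in these deciles (9.16%, 5.32 to 15.3). In the highest decile 411 of 530 regions with both factors were kept (77.5%), 70.6% of the 411 held an AP-1 element, and their median was 10 lists. With FOSL1 and without FOXA2 the kept share in the highest decile was 76.6% of 397. Without FOSL1 the share in that decile was 43.0% of 719 regions with FOXA2 and 45.4% of 504 without it. At strong sites the share thus differed little with FOXA2, whether or not FOSL1 was present. Over all deciles the standardised FOSL1 difference was 49.1 points (44.5 to 53.7) within regions that overlapped FOXA2 and 11.1 (7.72 to 14.4) within those that did not.

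FOSL1 itself was rarely listed at these sites after silencing. The FOSL1 list held 3843 regions in siNC and 1538 in siFOXA2 cells. Of all 2550 JUN regions with FOSL1 in siNC, 1647 kept JUN but 240 overlapped a siFOXA2 FOSL1 region. Both were kept at 235, JUN alone at 1412, FOSL1 alone at 5 and neither at 898. Of the 1859 filtered regions of this kind, 1065 kept JUN but 27 overlapped a siFOXA2 FOSL1 region. In the filtered set both were kept at 25, JUN alone at 1040, FOSL1 alone at 2 and neither at 792. The lists that define shared places include the siFOXA2 FOSL1 list, so the filtered FOSL1 count was partly lowered by definition. Most of the sites that kept JUN were thus no longer listed for FOSL1, and the part of depth in the shorter FOSL1 list was not tested.

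The AP-1 element was as common in lost as in kept regions. It was within 100 bp of the centre in 50% of kept (48.3 to 51.7), 49.3% of lost (48.7 to 50) and 8.43% of new regions. In windows of the same size 2 kb away it was found in 3.27% around siNC regions, and in 16.8% of 210960 accessible PC3 regions. In the filtered set the shares were 62.1% of kept and 50.4% of lost regions, and the standardised difference was -0.662 points (-1.41 to 0.0856), against -4.79 (-5.54 to -4.04) over all regions. The sign depended on strength. In the highest decile of the filtered set 61.0% of regions with the element and 51.9% without it were kept, and in the lowest decile 1 of 430 (0.233%) with it and 2.82% of 1385 without it.

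The forkhead element was less common in kept than in lost regions. It was present in 32.0% of kept (30.4 to 33.7), 45.0% of lost (44.4 to 45.7) and 22.4% of new regions, against 33.4% of the windows 2 kb from siNC regions and 29.7% of all accessible regions. Kept regions were thus near the level of the surrounding sequence and lost regions above it. The median GC content of the searched windows was 45.0% in kept, 42.0% in lost and 46.0% in new regions. Its part in the forkhead difference was not tested. The standardised difference in kept share was -4.67 points (-5.41 to -3.93) and -3.61 (-4.33 to -2.90) in the filtered set. In the highest decile of the filtered set 51.8% of 817 regions with a forkhead element and 62.3% of 1333 without one were kept.

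Read together, the 2 elements set strong sites apart in 1 combination. In the highest decile of the filtered set 41.0% (35.7 to 46.6) of the 307 regions with a forkhead element and no AP-1 element were kept. With both elements the share was 58.2% of 510, with AP-1 alone 62.5% of 994 and with neither 61.7% of 339. The lost CTNNA3 sequence above is of the first kind. Within regions that held an AP-1 element the standardised forkhead difference was -2.85 points (-3.90 to -1.79), and within regions that held none it was -4.43 (-5.41 to -3.45).

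Overlap with FOXA2 gave no single direction. FOXA2 in vehicle cells overlapped 60.9% of kept, 42.0% of lost and 12.6% of new regions. The standardised difference was 4.20 points (3.41 to 4.99) over all regions and 0.397 (-0.336 to 1.13) in the filtered set, where 57.6% of 1249 FOXA2-overlapping and 59.2% of 901 other regions of the highest decile were kept. With the other FOXA2 ChIPs, which had 77822 and 62714 regions against 24038, it was -5.87 and -5.60 points over all regions and -3.11 and -3.44 in the filtered set. The direction therefore changed with the FOXA2 list used. The forkhead element split regions that overlapped FOXA2. Of 6325 filtered regions with FOXA2 and a forkhead element 9.94% were kept, and of 3417 with FOXA2 and no forkhead element 20.6% (standardised difference -6.60 points, -7.90 to -5.29). Among regions without FOXA2 the forkhead difference was -2.56 points (-3.60 to -1.52).

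The FOXA2 sites that LSD1 inhibitors left in place were also read. Within the 9742 filtered JUN regions that overlapped FOXA2 in vehicle cells, JUN was kept at 20.2% of the 4982 that also overlapped FOXA2 under ORY-1001 and at 6.83% of the 4760 that did not (standardised 6.32 points, 5.06 to 7.58). For C12 the shares were 20% of 4258 and 8.75% of 5484 (5.14 points, 3.89 to 6.40). In the highest decile alone the differences were 5.72 points (-0.515 to 11.9) for ORY-1001 and -0.848 (-6.50 to 4.80) for C12, so that at strong sites neither was beyond its counting error.

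**Figure D3:**
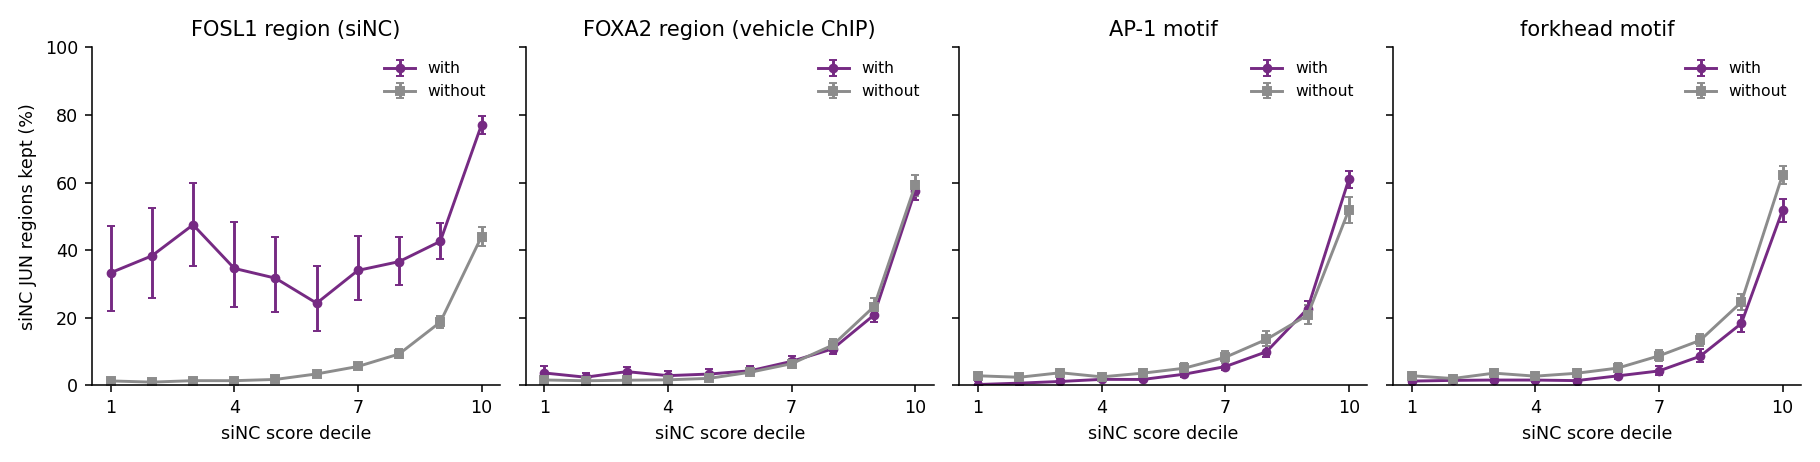
Share of filtered siNC JUN regions kept under siFOXA2 (y axis, percent, 95% Wilson intervals) by siNC score decile (x axis, 10 is highest), with and without a FOSL1 region, a FOXA2 region of the vehicle ChIP, an AP-1 element and a forkhead element. The FOSL1 lines are apart in every decile, the FOXA2 lines nearly coincide, and in the highest decile the AP-1 line with the element lies above and the forkhead line with the element below.

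Most lost regions lay in active chromatin of vehicle cells. ATAC regions overlapped 96.3% of lost, 94.5% of kept and 33.8% (30.8 to 37.0) of new regions, and H3K27ac regions overlapped 75.6%, 88.6% and 17.7%. The standardised H3K27ac difference was 3.18 points (2.02 to 4.34), and 3.34 (2.19 to 4.48) in the filtered set. In its highest decile 59.2% of 2028 regions with the mark and 42.6% of 122 without it were kept, whereas in each of deciles 1 to 5 the share was lower with the mark (1.56% with and 3.75% without it in the lowest, 2.37% and 3.29% in the 5th). Accessible regions were less often kept than the 951 others (13.1% against 18.6%, standardised -25.3 points, -30.1 to -20.5). The standardised value rested on few regions. Of the 951, 509 lay in the lowest decile, where 2.99% of accessible and 6.29% of other regions were kept. Each of deciles 6 to 10 held only 16 to 36 of them. The median ATAC score was 2048 at kept and 912 at lost regions of the filtered set, and the median H3K27ac scores were 572 and 319, with JUN strength not held equal. In the highest JUN decile the median ATAC scores were 2817 at kept and 2202 at lost regions, and in deciles 1 to 5 the order turned, to 360 and 673.

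**Figure D4:**
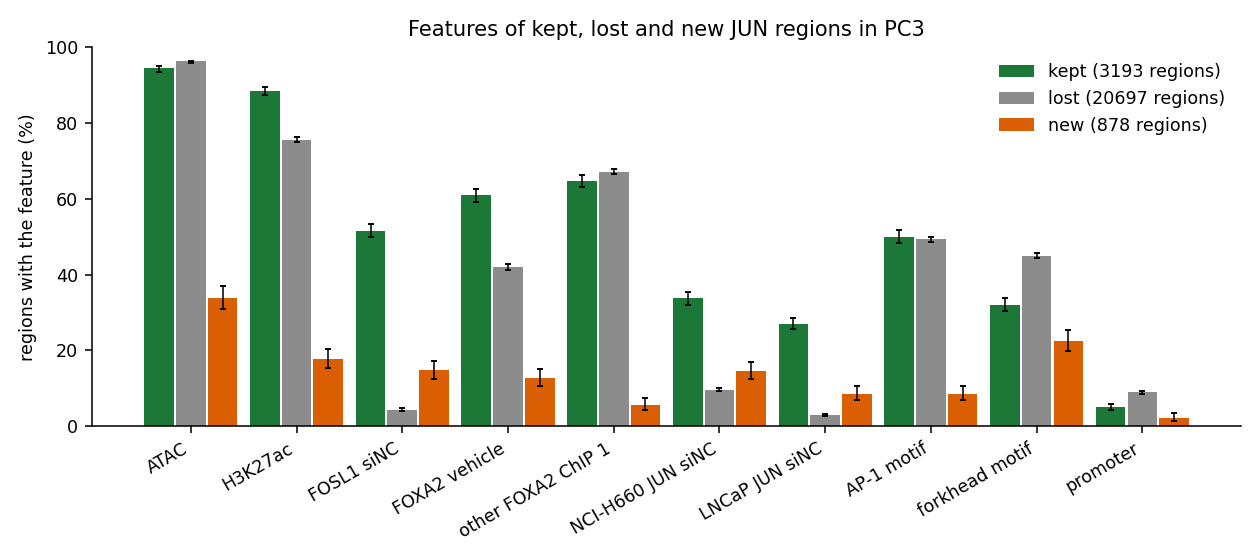
Share of kept, lost and new JUN regions (y axis, percent, 95% Wilson intervals) that overlapped each list or held each element (x axis). Kept and lost regions are alike in ATAC (94.5% and 96.3%) and in the AP-1 element (50% and 49.3%) and far apart in FOSL1 (51.6% and 4.36%), and new regions are lower than both in ATAC (33.8%) and in the AP-1 element (8.43%).

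Promoters kept JUN less often than distal sites. Of 2017 regions within 1 kb of a protein-coding start 7.93% (6.83 to 9.19) were kept, of 9548 in introns 11.7% and of 11496 between genes 16.1%. Coding exons (502 regions) kept 9.76% and UTRs (327 regions) 5.50%. Promoter regions were weaker calls, with a median score of 109 against 153 between genes. The standardised promoter difference was -3.28 points (-4.67 to -1.89) and -1.34 (-2.75 to 0.0712) in the filtered set, in which intergenic regions stood 1.39 points (0.664 to 2.11) above the rest.

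Each region was assigned to the nearest protein-coding start, which gave 7973 genes with a siNC region and 1411 with at least 5. Of the 1411, 522 kept none (37.0%) and 44 kept at least 50% of their regions (3.12%). The share of genes without a kept region fell with the number of regions, from 43.7% of genes with 5 to 9 regions to 1.39% of the 72 genes with 20 or more, so a gene that kept none was often a gene with few chances.

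The 10 genes with the most lost regions lost between 27 and 37 each, and the stretch of genome nearest to the starts of each ran from 1.09 to 3.93 Mb. TRPS1, a GATA-type repressor, lost 37 of 43 regions. MYC, the growth-promoting transcription factor, lost 33 of 41, none of them at its promoter, or 27.9 per Mb of that stretch. SOX9, a transcription factor of progenitor cells, lost 31 of 36, or 23.1 per Mb. PARD3, a scaffold of cell polarity, lost 31 of 32, the highest density of the 10 genes at 28.5 per Mb, and ADGRL3, an adhesion receptor, lost 32 of 36 at 8.14 per Mb. The other genes were PCDH15 (35 of 37 lost), NAALADL2 (34 of 41), CSMD3 (30 of 31), CADM2 (27 of 31) and ALCAM (27 of 29), among which PCDH15, CADM2 and ALCAM encode cell adhesion molecules. Within the filtered set PCDH15 lost 21 of 23, since 14 of its regions were not accessible, and CSMD3 24 of 25, and HAS2 and LRP1B, with 25 lost each, took their places among the 10. Against 86.6% of the whole list, PARD3 and CSMD3 lost nearly all and MYC and NAALADL2 somewhat less.

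At PARD3 the loss included strong regions. Its 31 lost filtered regions scored between 34 and 877 with a median of 253, and 1 of its 10 regions in the highest decile was kept, with a score of 914 in siNC and 83 in siFOXA2. At TRPS1 all 3 regions in the highest decile were kept, and its lost regions reached 369. At MYC 5 of 12 such regions were kept. Its kept scores ran from 244 to 1404 with a median of 642, and its lost scores from 49 to 845 with a median of 228. Kept and lost scores thus overlapped between 244 and 845. At SOX9 4 of 10 were kept, and the strongest SOX9 region, with a score of 1329, was lost.

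**Figure D5:**
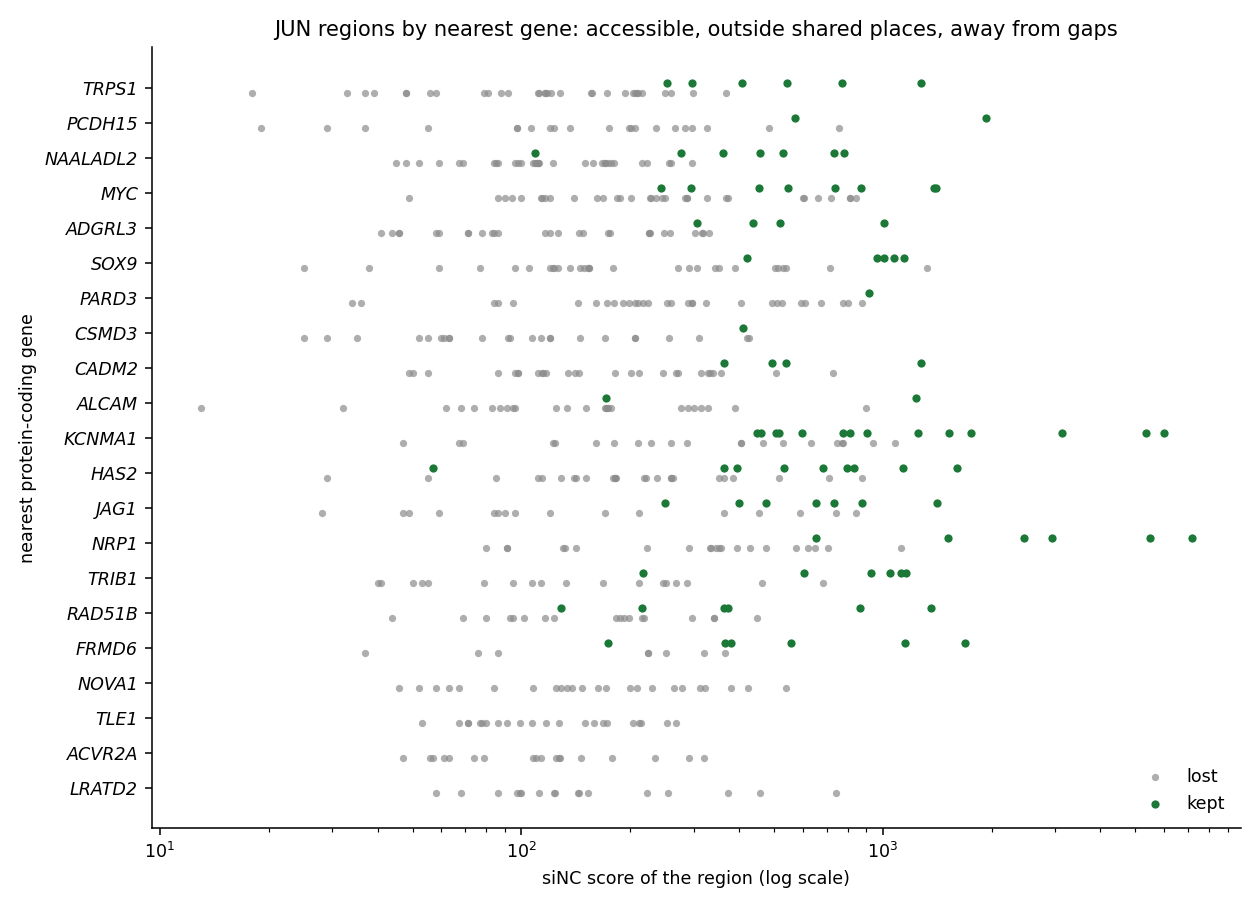
Score in siNC (x axis, log scale) of each filtered JUN region by nearest gene (y axis), with kept regions in green above and lost regions in grey below each line. Kept regions sit to the right for KCNMA1 and NRP1, whose highest scores are 6009 and 7149, and the lowest rows are genes with no kept region, whose scores end at 744 or lower.

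Of the genes that kept none, TLE1, a Groucho-type corepressor, had the most regions, 22 with scores of 53 to 267. ACVR2A, an activin receptor, had 19 and LRATD2 17. SOX11, a neural transcription factor, CBLB, a ubiquitin ligase, AKAP6, a kinase anchor, CNTNAP2 and PCDH9, both adhesion proteins, also had 17, and DAB2, an endocytic adaptor, and DHFR2 had 16 each. None of the 10 had a region with a score above 744, which LRATD2 reached, and FOSL1 overlapped 1 or none of the regions of each. In the filtered set NOVA1, a neuronal RNA-binding protein, lost all 24 of its regions, with scores of 46 to 539, and HNF4G, a nuclear receptor, all 17.

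The genes with the most kept regions were mainly neighbours of sequence gaps. CWH43 kept 38 of 51, RP11-685N3.1 33 of 41, ZNF33B 28 of 36, SHCBP1 20 of 23 and SPIN4 19 of 29, and every one of these regions lay within 2 Mb of a gap. All 10 genes with the highest kept share, led by OR4C46 (9 of 10), had a region near a gap or in a shared place. So had 31 of the 44 genes that kept at least 50%. The same share over all 1411 genes with at least 5 regions was not counted, so nothing particular to these genes is read from it. Shared places also took in the siFOXA2 JUN list, so the link with retention was partly set by definition. KCNMA1, the pore of a calcium-activated potassium channel, was the 6th by number with 15 of 36 kept and had no region near a gap.

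In the filtered set, where the whole kept share was 11.4%, KCNMA1 kept the most regions, 14 of 35. Its kept regions scored 450 to 6009 in siNC and 26 to 1430 in siFOXA2, and 13 of its 21 regions in the highest decile were kept. HAS2, which makes hyaluronan, kept 9 of 34. JAG1, a Notch ligand, kept 7 of 23, and TRIB1, a pseudokinase, kept 6 of 24. NRP1, a co-receptor of VEGF and semaphorins, kept 6 of 27, all in the highest decile, of which it had 12. FRMD6, an upstream part of the Hippo pathway, kept 6 of 14, and RAD51B, a DNA repair protein, 6 of 24. MYC, NAALADL2 and TRPS1 were also among the 10, with 8 of 41, 7 of 39 and 6 of 38, so that the same genes could lead by lost and by kept regions. Among genes with at least 5 filtered regions PITPNC1 (4 of 6), BCL10 (3 of 5), CUL2 (4 of 7) and PLAU (3 of 6) were among the highest shares, each on few regions.

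NRP1 and PARD3 are neighbours on chromosome 10 and differed. From 33000001 to 34000000, which holds ITGB1 and NRP1, 11 of 39 filtered regions were kept, and from 34000001 to 35000000, nearest to PARD3 and NRP1, 0 of 27. The most kept regions in any 1 Mb window lay at chr10:79000001-80000000 around KCNMA1, with 12 of 29.

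The fixed gene lists held 456 siNC regions near 96 of 117 genes, of which 71 were kept (15.6%, 12.5 to 19.2), against 13.4% of all siNC regions. Of the filtered regions of the lists 68 of 441 were kept (15.4%), with 6 of 22 for matrix proteolysis, 1 of 23 for cytokines and chemokines, 10 of 96 for TGF-beta and activin, 13 of 78 for growth factors and receptors and 5 of 32 for the loci of the study, and the kept counts of the other lists did not change. Among matrix proteolysis genes 7 of 25 regions were kept (28.0%, 14.3 to 47.6). PLAU, the urokinase protease, kept 3 of 6, including the region over its start site, which scored 1323 in siNC and 383 in siFOXA2. The collagenases MMP1 and MMP13 lost all of their 1 and 3 regions, in each case including 1 at the promoter.

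The list of integrins and matrix adhesion genes kept 13 of 50 regions (26.0%, 15.9 to 39.6). ITGB1, the common integrin beta chain, kept 5 of 11. Its strongest region scored 1465 in siNC and 450 in siFOXA2, and the kept region at its start site scored 725 and 175. ITGA3 kept 2 of 4, and CD44, the hyaluronan receptor, 1 of 5. The lower bounds for this list and for matrix proteolysis lay above the 13.4% of all regions. Since the lists were chosen with results in view and regions near 1 gene are not independent, nothing particular to a list is read from this.

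Cytokines and chemokines kept 1 of 25 regions (4.00%, 0.710 to 19.5). The kept one lay 4058 bp from CCL20 and scored 530 in siNC and 60 in siFOXA2. All 7 CXCL8 regions, with scores of 117 to 313, were lost, as were the single regions of IL6, IL1A, IL1B and IL11. The YAP and TEAD list kept 3 of 38 (7.89%, 2.72 to 20.8). CCN2, a matricellular target of YAP, lost all 7 and YAP1 all 4, and CCN1, WWTR1 and TEAD1 kept 1 each.

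The TGF-beta and activin list kept 11 of 98 (11.2%). TGFBR2, a TGF-beta receptor, kept 4 of 25 and INHBA, the activin A subunit, 3 of 17, while SMAD3 lost 14 of 14, SMAD7 8 of 8 and FST 8 of 8. Mesenchymal transition genes kept 9 of 70 (12.9%), with 3 of 18 at ZEB2, 3 of 19 at CDH2 and 2 of 5 at TWIST2, and FN1 lost all 9. Growth factors and receptors kept 14 of 82 (17.1%), of which NRP1 had 6. AXL, a receptor tyrosine kinase, kept both of its regions, with scores of 533 and 462 in siNC and 77 and 126 in siFOXA2. EGFR kept 2 of 10, and VEGFC and NRP2 lost all 9 and all 7.

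The genes of the AP-1 subunits kept 5 of 23 regions (21.7%, 9.66 to 41.9). At JUN the promoter region, with a score of 300, was lost, and 1 region 64751 bp from its start, with FOXA2 and FOSL1, was kept, at 718 in siNC and 192 in siFOXA2. FOSL1 lost all 3 of its regions, of which 2 were at the promoter, at scores of 546 and 116. FOSL2 and JUND each kept their promoter region. The FOXA2 gene kept 2 of 11, and these were its strongest regions, 1194 and 983 in siNC and 246 and 94 in siFOXA2, 193893 and 71781 bp from its start, and the region at its promoter, with a score of 76, was lost. FOXA1 kept 1 of 3.

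The 10 loci that the study displayed or tested by ChIP-qPCR, and so chose on these cells, held 34 regions near 9 genes, of which 5 were kept (14.7%). TP63, a basal-lineage transcription factor, lost all 12, up to a score of 655. PTHLH, the parathyroid hormone-related protein, kept 2 of 7, the stronger of which went from 3815 to 743, while another of 1127 was lost. WNT7A kept 2 of 5. NDC80, a kinetochore protein, had 1 region, which was kept at 626 in siNC and 170 in siFOXA2. The regions near INCENP (2), CDK1 (1), CCBE1 (2) and ERCC6L (1) were lost, and their scores lay between 24 and 299.

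The new regions were weak and mostly not in accessible chromatin. Their median score was 28 against 90 over the whole siFOXA2 list, they overlapped a median of 2 lists, their own included, and 14.9% lay within 2 Mb of a gap. Of the 878, 558 lay between genes (63.6%) and 19 at promoters (2.16%), and 18 were within 500 bp of a siNC region. Accessible regions that held an AP-1 element numbered 45 (5.13%), and the highest-scoring of these, at 135, lay at chr3:157502947-157503191, 251539 bp from VEPH1. The highest-scoring new region outside shared places, at 781, lay 35794 bp from a gap on chromosome X and overlapped 16 lists. The third, at 540, lay at chr12:28156341-28156597, 30675 bp from PTHLH, held a forkhead element and overlapped none of the vehicle FOXA2, H3K27ac and ATAC lists.

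JUN sites that other lines shared were kept more often. JUN regions of siNC LNCaP cells overlapped 27% of kept and 2.96% of lost regions, and JUN regions of siNC NCI-H660 cells 33.7% and 9.54%. In the filtered set the standardised differences were 24.2 points (20.9 to 27.5) for LNCaP and 9.23 (7.72 to 10.7) for NCI-H660. The LNCaP value rested in part on few regions. Each of deciles 1 to 5 held only 40 to 67 regions shared with LNCaP. Of these 23.1% to 40.0% were kept by decile, against 1.09% to 1.84% of the others. In its highest decile 75.0% of 184 regions shared with LNCaP and 56.7% of 1966 others were kept, and 66.6% of 338 regions shared with NCI-H660 and 56.7% of 1812 others.

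Kept shares differed between chromosomes by less than between deciles. In the filtered set they ran from 7.76% on chromosome 13 to 17.1% on chromosome 19 among chromosomes with over 100 regions. After standardisation chromosome 19 stood 3.64 points above the rest (0.441 to 6.85), chromosome 9 2.52 points above (0.0705 to 4.97) and chromosome 10 below (-2.65 points, -4.05 to -1.26). Intervals of the other 20 chromosomes held 0.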

How the data were processed

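The authors performed ChIP-seq and ATAC-seq, aligned reads to hg19 with BWA 0.7.17-r1188, converted them with SAMtools 1.9 and called regions with MACS2 2.1.4, per the labels and the methods of the study. The control library, the MACS2 settings and any pooling were not given in the sources used here. The authors deposited each list as intervals, 20 of 22 with a whole-number score from 13 upward that ranks regions within a list. Read numbers are not part of the lists, so the depth is unknown.

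The labels gave each group, and each side had 1 list. Overlaps of at least 1 bp, score deciles of the siNC list, differences standardised over them, and Wilson 95% intervals were computed. Python 3.11.15 was used with numpy 2.4.6 and pandas 2.3.3. The overlap search and the standardised difference were tested on simulated data. Genes came from GENCODE 44 lifted to GRCh37 and sequences from GRCh37, in whose chromosomes all regions fitted. Elements were searched within 100 bp of each centre. For genes whose regions could be counted, the rule named the 10 with the most lost, the 10 with the most kept, and, with at least 5 siNC regions, the 10 with the highest kept share and the 10 largest with none kept, besides the fixed lists and the 3 highest-scoring regions of each kind, of which sequences from chromosome 8 and from promoters were not printed. Some of these regions and genes are not reported here. Genes of the filtered set and the genes set beside each other on chromosome 10 were chosen after their values were seen. The members and lists were chosen with earlier results of these data known.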

Additional observations from a re-analysis of the deposited data

Results flagged for a closer look

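The number of JUN regions moved in opposite directions under siFOXA2 in 2 lines, which was not tested since each side had 1 list: the log2 ratio of siFOXA2 to siNC numbers was -2.55 in PC3 and 1.69 in NCI-H660. The standardised difference in kept share between FOXA2-overlapping and other JUN regions, with the vehicle FOXA2 list of each line, was 4.20 points in PC3 and -10.4 in NCI-H660, and this difference between the lines was not tested either. Both values are over all regions, and no filtered set was made for NCI-H660. The PC3 value was 0.397 (-0.336 to 1.13) in the filtered set and -5.87 and -5.60 with the other FOXA2 ChIPs. The opposite sign therefore depended on the PC3 FOXA2 list.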

How the results depend on the processing

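Of 48 alternative values 18 stayed within the counting interval of the reported one, 25 moved outside it and 5 changed sign, and no cause of a change was tested. No paired analysis was possible because each side had 1 list. The kept share was 12.4% with an overlap of at least 50% of both regions, 47.4% with equal numbers of top regions, 10.6% with scores of at least 100 in both lists, 12% without shared places and 11.4% in the filtered set. Highest minus lowest decile it was 58.1 points, and 54.4 with the 50% overlap and 55.5 without shared places. Without standardising, the differences were -5.93 points for promoters, 8.58 for H3K27ac, -5.46 for ATAC, 57.3 for FOSL1, 8.87 for FOXA2, 0.311 for the AP-1 element (a change of sign) and -6.13 for the forkhead element. In the filtered set they were -1.34 for promoters, 31.2 for FOSL1, 0.397 for FOXA2, -0.662 for AP-1 and -3.61 for forkhead. The FOSL1 difference was 42.6 with the 50% overlap and 38.6 without shared places, the FOXA2 one 2.12 without shared places, and the AP-1 one -2.42 without shared places and -6.92 with any middle base. With the other FOXA2 ChIPs the FOXA2 difference reversed, to -5.87 and -5.60, and to -3.11 and -3.44 in the filtered set. Genes with at least 5 regions and none kept were 41.5% within 100 kb of a start and 41.2% in the filtered set. Unknown depth limits every lost call.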
